A study of Mus musculus with 6 samples.

Results

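The genes described here are 9 transcription factor genes of the Th17 lineage, Rora, Batf, Irf4, Ahr, Maf, Runx1, Bhlhe40, Nfkbiz and Ikzf3. They were taken by symbol from a list drawn up for the lineage, and all 9 were found among the 39179 genes counted in each file and among the 13846 genes that passed the low-count filter. RNA was sequenced from 6 libraries of mouse CD4+ T cells turned into Th17 cells in culture, 3 with desIgf1, an insulin-like growth factor 1 lacking its first residues, which lets it escape its carrier proteins, and 3 without it. All 6 libraries came from naive splenic CD4+ T cells of C57BL/6 mice in which human CD2 reports Il17a, Thy1.1 reports Ifng and GFP reports Foxp3. Every culture lasted 5 days and held TGF-β at 2.5 ng/mL and IL-6 at 20 ng/mL, antibodies blocking IL-4 and IFN-γ at 10 µg/mL each, anti-CD3 at 5 µg/mL and, as feeders, irradiated splenocytes without CD4+ cells. The treated cultures also received desIgf1 at 30 ng/mL. Their shared protocol text names desIgf1 for every library, so the groups follow the titles. The cells sorted for RNA were positive for the Il17a reporter and negative for the other reporters, so only cells that had already switched on Il17a were measured.

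Th17 cells are CD4+ T helper cells that secrete IL-17 and protect mucosal surfaces. Their programme is built in layers: BATF and IRF4, induced through the T cell receptor, bind together and open chromatin, and factors induced or activated by cytokines and ligands then select which genes are transcribed. RORα is a nuclear receptor of that second layer, c-MAF, RUNX1, AHR and BHLHE40 tune the cytokines produced, IκBζ (Nfkbiz) is a nuclear coactivator at the Il17a locus, and Aiolos (Ikzf3) silences Il2.

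Gene counts summed to 34567899 to 47929948 per library, and control library 3 was the lowest. Each member had 1893 to 82172 counts in a library, so the counting error was at most 2.30% and the spread between libraries exceeded it. The 6 T cell markers summed to 4340 to 5177 CPM (counts scaled to the library total after TMM normalisation), and Il17a was at 66.0 to 159 CPM. On the first principal component, with 43.5% of the variance, both libraries numbered 3 stood apart from the other 4. The second, with 27.0%, separated the groups, with desIgf1 libraries at 13.1 to 39.8 and controls at -35.0 to -12.3. The 6 B cell markers summed to 1.02 to 3.32 CPM. The 8 macrophage and monocyte markers summed to 92.4 to 181 CPM in controls and 152 to 178 CPM with desIgf1, mostly Ctss, while Csf1r, Adgre1, Tyrobp and Fcer1g were under 1 CPM in all 6 libraries. The 6 dendritic cell markers summed to 2.19 to 15.8 CPM in controls and 6.65 to 38.6 CPM with desIgf1, mostly Ccl22. Xcr1 and Siglech were at 0 counts and Itgax and Flt3 under 1 CPM. The part of these other cells in the results was not tested. In bulk RNA, fewer cells that express a gene and less RNA per cell cannot be told apart.

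Promoters from RefSeq (GRCm38.p6) were matched for 4 of the 9 genes, 5 promoters in all, and those of Ahr, Maf, Bhlhe40, Nfkbiz and Ikzf3 were not matched. The 4 below belong to the gene with the largest difference between groups (Rora), to the most abundant of the genes whose treated mean was lower (Irf4) and to a pair whose libraries rank alike within each group (Batf and Runx1). Each runs 5′ to 3′ on the strand of its gene, starts 250 bases before the RefSeq start and stops before the first base that GENCODE M21 places in an exon. Capitals mark those motifs of the next paragraph that lie wholly in the printed stretch.
Rora, chr9:68653536-68653785, plus strand: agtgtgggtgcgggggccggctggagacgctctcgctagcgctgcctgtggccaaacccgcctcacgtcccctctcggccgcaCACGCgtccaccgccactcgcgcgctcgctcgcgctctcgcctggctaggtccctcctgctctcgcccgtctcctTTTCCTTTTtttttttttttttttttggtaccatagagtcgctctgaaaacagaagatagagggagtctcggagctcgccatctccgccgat
Irf4, chr13:30748983-30749225, plus strand: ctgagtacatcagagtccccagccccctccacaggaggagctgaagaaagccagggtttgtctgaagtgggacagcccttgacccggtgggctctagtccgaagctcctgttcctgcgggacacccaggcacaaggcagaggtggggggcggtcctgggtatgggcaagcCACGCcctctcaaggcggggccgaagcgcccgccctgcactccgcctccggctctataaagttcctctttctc
Batf, chr12:85686470-85686668, plus strand: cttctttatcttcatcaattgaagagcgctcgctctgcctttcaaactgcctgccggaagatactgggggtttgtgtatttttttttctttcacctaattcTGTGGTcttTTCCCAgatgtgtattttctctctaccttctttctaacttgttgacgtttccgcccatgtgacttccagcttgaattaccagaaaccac
Runx1, distal start, chr16:92826150-92826324, minus strand: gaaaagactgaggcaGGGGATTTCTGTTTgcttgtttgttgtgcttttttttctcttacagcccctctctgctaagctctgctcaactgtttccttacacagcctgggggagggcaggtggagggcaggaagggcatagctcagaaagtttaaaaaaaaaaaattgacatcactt

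Motifs that the factors themselves bind were searched on both strands in the windows of 300 bases (250 before and 50 after the start), and the share of all 32851 RefSeq promoters with the same motif is given beside each. The AP-1 motif of BATF (TGANTCA) was in 0 of the 5 member promoters and in 7.81% of all. The ROR element (AAAGGTCA, TAAGGTCA, ATAGGTCA or TTAGGTCA) was in 0 of 5 and in 3.38% of all, and the MAF core (TGCTGANNC) in 0 of 5 and in 5.34% of all. The IRF motif (AAANNGAAA) was in the Rora and the distal Runx1 promoters and in 10.6% of all. In the Runx1 promoter it overlaps the only kappaB motif found (GGGNNTTTC, in 4.36% of all). The AHR element (GCGTG) was in the promoters of Rora and Irf4 and in the proximal Runx1 promoter, and in 32.4% of all. The RUNX motif (TGTGGT or TGCGGT) was in the Batf and distal Runx1 promoters (in the latter past the printed stretch) and in 22.4% of all, the E-box of BHLHE40 (CACGTG) in the distal Runx1 promoter (also past the printed stretch) and in 7.15% of all, and the Ikaros motif of Aiolos (TGGGAA) in the Rora (past the printed stretch) and Batf promoters and in 25.6% of all. These are matches of letters in a short window and nothing was measured at them.

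Per length, Bhlhe40, Irf4 and Batf were the most abundant of the 9. CPM per kb of merged exons (GENCODE M21) is the scale of this paragraph, and each value is a level in controls (mean ± SD, n = 3). Bhlhe40 was at 290.5 ± 47.2 and Irf4 at 244 ± 77.3, and their libraries overlapped. Batf followed at 87.1 ± 20.0, Maf at 49.5 ± 2.33 and Rora at 24.9 ± 1.65, each with all 3 libraries below those of the gene before it. The levels of Ikzf3 (20.96 ± 7.54), Ahr (19.1 ± 4.95), Runx1 (11.0 ± 3.14) and Nfkbiz (11.0 ± 1.87) overlapped from one to the next, and Ikzf3 overlapped Rora. Averaged over all 6 libraries, Bhlhe40 stood at percentile 99.6 of 13703 tested genes with a known length and Nfkbiz at percentile 65.0, so none of the 9 was a scarce transcript. With desIgf1 the order of the 9 means was unchanged, at 351 ± 33.0 for Bhlhe40, 193 ± 34.8 for Irf4, 96.4 ± 18.1 for Batf, 58.8 ± 6.03 for Maf and 37.2 ± 8.67 for Rora, down to 12.3 ± 1.63 for Nfkbiz. In the treated libraries Bhlhe40 and Irf4 no longer overlapped, and neither did Rora and Ikzf3. With the longest transcript in place of merged exons, Ikzf3 in controls was at 39.8 and Rora at 29.9, the reverse of the order above. On that scale Rora (44.7) was above Ikzf3 (29.5) with desIgf1, so their order was not the same in both groups. Bhlhe40 and Irf4 did not overlap in controls either, and Irf4 and Batf overlapped with desIgf1. The control overlap of Bhlhe40 and Irf4 and the treated separation of Irf4 and Batf thus depended on the length used. With desIgf1, Bhlhe40 was apart from Irf4, and Rora from Ikzf3, on both scales.

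In edgeR's quasi-likelihood test over all 13846 genes, 0 of the 9 passed an adjusted p (Benjamini-Hochberg) of 0.05, where 0% of all genes did. With the replicate number as a block it was again 0 of 9, where 0.318% of all genes passed (0.181% higher with desIgf1 and 0.137% lower). DESeq2 called 0 of 9 and 1.48% of all genes, edgeR without the low-count filter 0 of 9 and 0.0711%, and limma voom 0 of 9 and 0%. Blocked fits that left out a number have 1 residual degree of freedom. Without number 1, 0 of 9 and 0.513% of all genes passed, without number 2, 3 of 9 (Rora, Bhlhe40 and Ikzf3) and 4.42%, and without number 3, 2 of 9 (Rora and Ahr) and 7.64%. At an unadjusted p of 0.05, 1 of the 9 (Rora) was under the threshold without the block, against 8.16% of all genes, and 3 (Rora, Irf4 and Bhlhe40) with it, against 14.3%. The 3 libraries of one group lay above all 3 of the other for Rora and Maf, 2 of 9 and both higher with desIgf1, against 13.5% of all genes (7.31% higher and 6.18% lower). The median log2 fold change of the 9 was 0.17, and over all tested genes it was -0.01. All CPM below are scaled with TMM factors, and log2 fold changes are desIgf1 minus control.

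**Figure D1:**
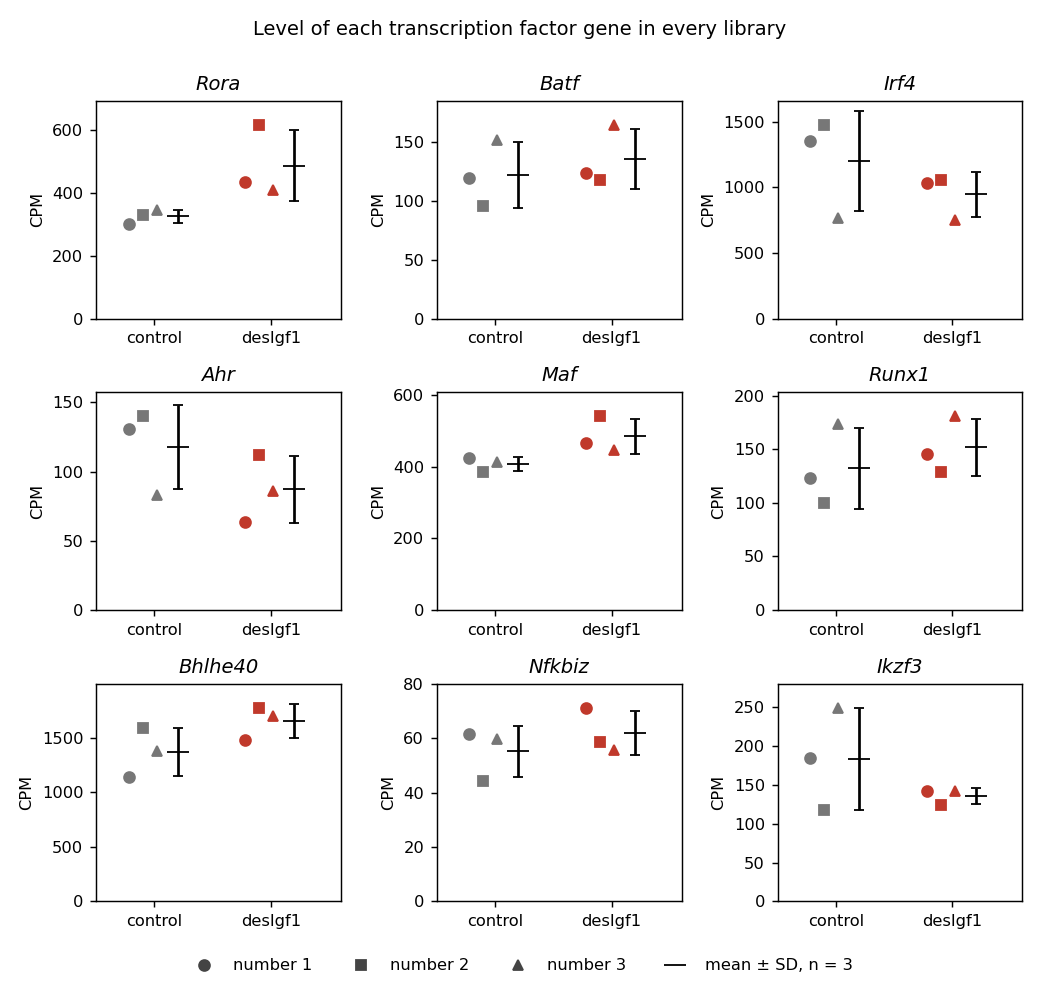
CPM of the 9 genes in every library (y axis from 0, linear), controls in grey and desIgf1 in red, with the replicate number as the symbol and the mean ± SD (n = 3) beside each group. For Rora and Maf all 3 desIgf1 libraries lie above all 3 controls, and for the other 7 genes the groups overlap.

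Rora (ENSMUSG00000032238, chr9:68653786-69388246, plus strand), which encodes RORα, a nuclear receptor that promotes Il17a and Il17f transcription, had the largest difference of the 9. Controls 1, 2 and 3 had 302, 330 and 345 CPM of Rora, and desIgf1 libraries 1, 2 and 3 had 434, 617 and 409 CPM. The controls lay close together and every treated library was above them, with treated library 2 the highest. The mean went from 325 ± 21.6 to 486.5 ± 113 CPM (SD, n = 3), a 1.49-fold difference with a 95% interval of 1.14 to 1.96 (log2 0.58 ± 0.17 SE, edgeR adjusted p = 0.455, and 0.179 with the block). Within numbers 1, 2 and 3 the log2 differences were 0.52, 0.90 and 0.25. In blocked fits that left out number 2 or number 3, Rora passed (edgeR adjusted p = 0.0323 and 0.0157, log2 0.39 and 0.72), where 4.42% and 7.64% of all genes passed. Without number 1 the adjusted p was 0.581.

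Batf (ENSMUSG00000034266, chr12:85686669-85709087, plus strand), a basic leucine zipper factor that pairs with JUN proteins and is needed for Th17 differentiation, was at 120, 95.8 and 152 CPM in controls and at 124, 118 and 165 CPM with desIgf1. Number 3 was the highest and number 2 the lowest in both groups, and the groups overlapped. Its fold was 1.11 (95% interval 0.806 to 1.52, edgeR adjusted p = 0.846), and the log2 differences in numbers 1, 2 and 3 were 0.05, 0.30 and 0.12. The log2 fold change was -0.00314 when control 2 was left out and -0.04 when desIgf1 library 3 was.

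Irf4 (ENSMUSG00000021356, chr13:30749226-30766976, plus strand) encodes an interferon regulatory factor that is induced by T cell receptor signalling and binds DNA weakly alone and strongly beside BATF and JUN. It was at 1354, 1474 and 766 CPM in controls and at 1033, 1054 and 749 CPM with desIgf1. The treated libraries 1 and 2 were below their controls, and both number 3 libraries were the lowest of their group and nearly equal. The fold was 0.789 (95% interval 0.524 to 1.19, log2 -0.34 ± 0.25 SE, edgeR adjusted p = 0.704, and 0.333 with the block). The log2 differences in numbers 1, 2 and 3 were -0.39, -0.48 and -0.03.

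Ahr (ENSMUSG00000019256, chr12:35497974-35535038, minus strand) encodes the aryl hydrocarbon receptor, a ligand-activated factor that drives Il22 and detoxifying enzymes. It was at 131, 140 and 82.9 CPM in controls and at 63.3, 112 and 85.9 CPM with desIgf1. The treated values lay below the first 2 controls, with the third control inside the treated range. The fold was 0.739 (95% interval 0.490 to 1.12, log2 -0.44 ± 0.25 SE, edgeR adjusted p = 0.652). The pairs differed more than for any other member, with log2 differences of -1.04, -0.32 and 0.05 in numbers 1, 2 and 3. In the blocked fit that left out number 3, Ahr passed (edgeR adjusted p = 0.0379, log2 -0.68), as did 7.64% of all genes. Without number 1 (log2 -0.13) and without number 2 (log2 -0.50) the adjusted p was 1 and 0.635.

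Maf (ENSMUSG00000055435, chr8:115682942-115707794, minus strand), the gene of c-MAF, which supports Il21 and Il10 transcription, was at 423, 386 and 414 CPM in controls and at 467, 540 and 445 CPM with desIgf1. The groups did not overlap, but the lowest treated library was close to the highest control. Its mean went from 408 ± 19.2 to 484 ± 49.7 CPM, a 1.19-fold difference (95% interval 0.998 to 1.41, edgeR adjusted p = 0.608). Maf had the smallest spread within groups of the 9, with a pooled SD of 0.11 on the log2 scale, at percentile 25.8 of the 9003 genes at 10 CPM or more. The log2 differences in numbers 1, 2 and 3 were 0.14, 0.48 and 0.11.

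Runx1 (ENSMUSG00000022952, chr16:92601466-92826149, minus strand), a runt-domain factor that binds DNA with CBFβ, was at 123, 100.2 and 174 CPM in controls and at 146, 129 and 181 CPM with desIgf1. As for Batf, number 3 was the highest and number 2 the lowest in both groups. Its fold was 1.15 (95% interval 0.809 to 1.63, edgeR adjusted p = 0.805), with log2 differences of 0.25, 0.36 and 0.06 in numbers 1, 2 and 3.

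Bhlhe40 (ENSMUSG00000030103, chr6:108660629-108666925, plus strand), a basic helix-loop-helix repressor that is needed for GM-CSF production and restrains Il10, was at 1140.3, 1585 and 1375 CPM in controls and at 1476, 1774 and 1699 CPM with desIgf1. Number 1 was the lowest and number 2 the highest in both groups, and control 2 was above treated library 1. The fold was 1.21 (95% interval 0.956 to 1.52, log2 0.27 ± 0.14 SE, edgeR adjusted p = 0.636, and 0.282 with the block). The log2 differences in numbers 1, 2 and 3 were 0.37, 0.16 and 0.30. In the blocked fit that left out number 2, Bhlhe40 passed (edgeR adjusted p = 0.0418, log2 0.34), as did 4.42% of all genes. Without number 1 and without number 3 the adjusted p was 1 and 0.301.

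Nfkbiz (ENSMUSG00000035356, chr16:55811375-55838899, minus strand), the gene of IκBζ, was at 61.6, 44.4 and 59.7 CPM in controls and at 71.2, 58.7 and 55.9 CPM with desIgf1. The groups overlapped, and number 3 went the other way from numbers 1 and 2, with log2 differences of 0.21, 0.40 and -0.09. Its fold was 1.12 (95% interval 0.867 to 1.45, edgeR adjusted p = 0.771).

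Ikzf3 (ENSMUSG00000018168, chr11:98464902-98546031, minus strand), the gene of Aiolos, was at 184, 117 and 249 CPM in controls and at 142, 124 and 142 CPM with desIgf1. The controls spread over 2.13-fold and the treated libraries over 1.14-fold, and control 2 was below all 3 treated libraries. The fold was 0.741 (95% interval 0.499 to 1.10, log2 -0.43 ± 0.25 SE, edgeR adjusted p = 0.647). The log2 differences in numbers 1, 2 and 3 were -0.38, 0.09 and -0.81, so the lower mean rested on numbers 1 and 3. In the blocked fit that left out number 2, Ikzf3 passed (edgeR adjusted p = 0.00577, log2 -0.59), as did 4.42% of all genes, and number 2 is the pair with the opposite sign. Without number 1 (log2 -0.36) and without number 3 (log2 -0.14) the adjusted p was 1 and 0.577.

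**Figure D2:**
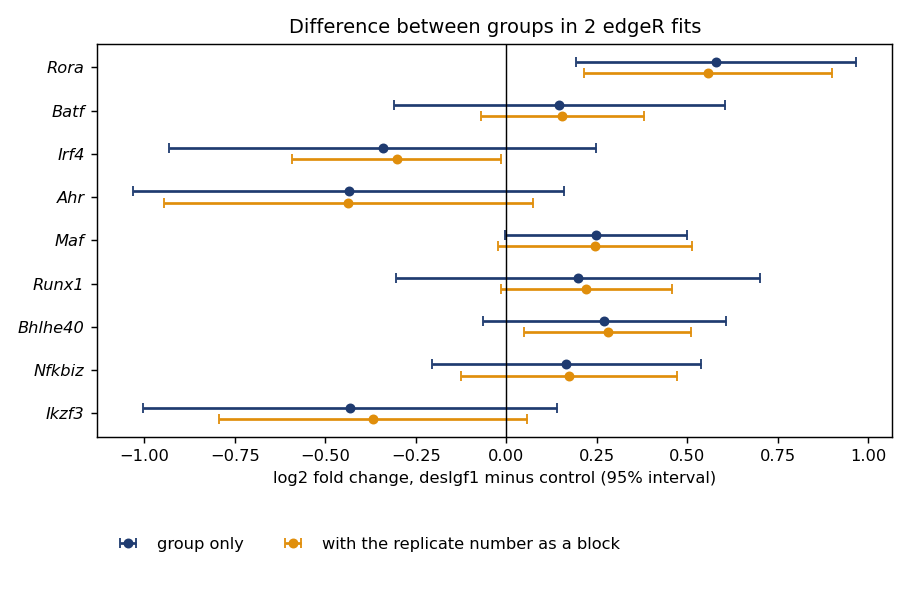
Log2 fold change of each gene (x axis) with its 95% interval, in blue from the fit with the group alone and in orange with the replicate number as a block. Without the block only the interval of Rora excludes 0, and with it those of Rora, Irf4 and Bhlhe40 do, before any adjustment over genes.

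The sizes that these data still allow differ between the genes. For Ahr the 95% interval of the fold runs from 0.490 to 1.12 and for Ikzf3 from 0.499 to 1.10, so a lower level by about that much was not separable from no difference at this spread. For Maf and Bhlhe40 the intervals end at 1.41 and 1.52. All of these are from the fit without the block. With the block the intervals were 0.519 to 1.05 for Ahr and 0.577 to 1.04 for Ikzf3. They were 0.984 to 1.43 for Maf and 1.04 to 1.42 for Bhlhe40. Among these genes only the blocked interval of Bhlhe40 excluded equal levels, before any adjustment over genes. The blocked edgeR fit gave an adjusted p of 0.404 for Ahr, 0.402 for Ikzf3 and 0.382 for Maf. For Batf, Runx1 and Nfkbiz it gave 0.486, 0.375 and 0.547.

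Direction was shared by the 3 replicate numbers for 6 of the 9 genes (Rora, Batf, Irf4, Maf, Runx1 and Bhlhe40), against 38% of all tested genes. The exceptions were Ahr and Nfkbiz, which differed in number 3, and Ikzf3, which differed in number 2. Number 2 had the largest positive difference for Rora, Batf, Maf, Runx1 and Nfkbiz, and number 3 had the smallest absolute difference for Rora, Irf4, Ahr, Maf, Runx1 and Nfkbiz.

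**Figure D3:**
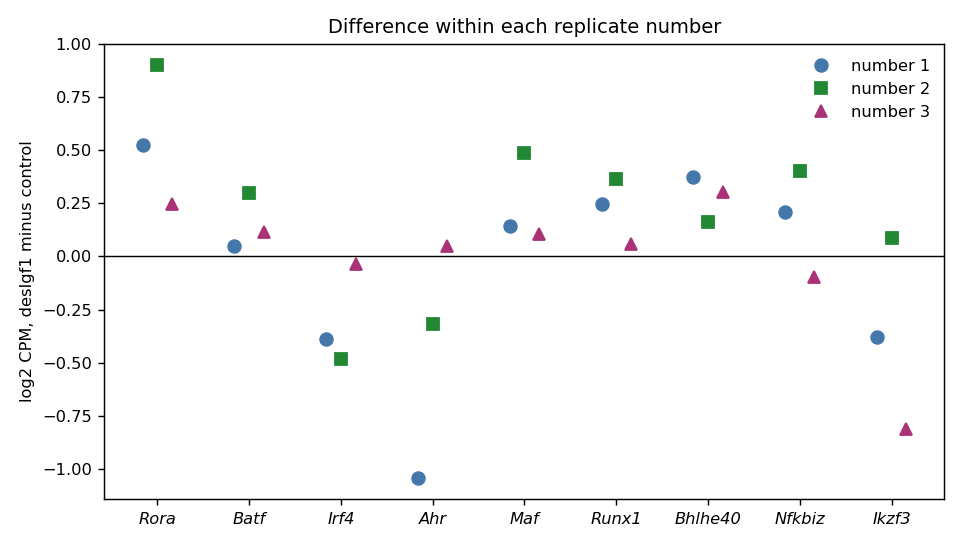
Difference in log2 CPM, desIgf1 minus control, within each replicate number (symbols and colours) for each gene. Rora, Batf, Maf, Runx1 and Bhlhe40 have all 3 points above 0 and Irf4 has all 3 below it, while Ahr runs from -1.04 to 0.05.

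The largest share of the spread over the 6 libraries lay with the group for 2 genes and with the replicate number for the others. There are more replicate numbers than groups, so the number has more degrees of freedom. Its expected share is therefore larger even where neither has an effect. The group took 67.6% of the sum of squares of log2 CPM for Rora and 63.5% for Maf. It took 9.23% for Batf, 14.2% for Runx1 and 16.8% for Irf4, where the replicate number took 86.6%, 81.1% and 76.3%. For Bhlhe40 the shares were 43.6% and 52.1%. For Ahr they were 29.8% and 37.9%, and 32.2% lay in neither, the highest of the 9.

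**Figure D4:**
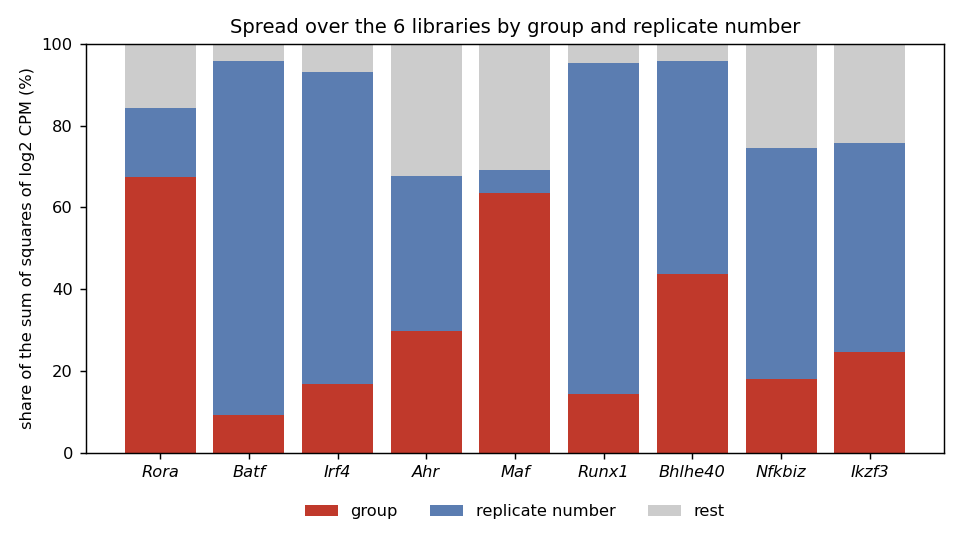
Share of the sum of squares of log2 CPM over the 6 libraries (y axis, %) that lies between the 2 groups, between the 3 replicate numbers and in the rest, for each gene. The group is the largest part for Rora and Maf, and the replicate number for the other 7 genes. The number has more degrees of freedom than the group, so the parts are not on equal terms.

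For Runx1, Batf and Irf4 both libraries numbered 3 lay outside the range of the other 4. On the log2 scale they averaged 0.52 above the other 4 for Runx1 and 0.47 above for Batf. They lay 0.68 below them for Irf4 (difference -0.68). The same difference was 0.43 for Ikzf3 and -0.34 for Ahr, without such a separation. For Ahr both number 3 libraries (85.9 CPM treated and 82.9 CPM control) lay within the range of the other 4. For Ikzf3 treated library 3 (142 CPM) did. For Bhlhe40 and Nfkbiz, whose replicate number also took the larger share of the sum of squares, the same difference was 0.05 and -0.01. The summed dendritic cell markers were also highest in number 3 in both groups (15.8 CPM in the control and 38.6 CPM in the treated library). Of these sums Ccl22 made up 13.5 and 35.2 CPM, and Zbtb46, the next highest, 1.32 and 1.59 CPM. Foxp3 was highest in number 3 too (1.69 and 1.80 CPM). Of the macrophage markers Ctss was highest there (175 and 167 CPM), while Lyz2 (1.40 and 4.30 CPM), Cd68 (2.15 and 4.55 CPM) and Itgam (1.03 and 1.43 CPM) were lowest there. The part of these genes in the levels was not tested.

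For each gene, the tested genes at 10 CPM or more with the most similar log2 CPM over the 6 libraries were ranked by Pearson's r, as a description over 6 points that share libraries. Rora was closest to Pfkfb4, a regulator of glycolysis (r = 0.996), and Neb (0.995), and 206 of 8994 genes had r above 0.9 with it. Irf4 was closest to Pml (0.997), a nuclear body protein, and Pim1 (0.995), a kinase induced by cytokines. Runx1 was closest to Mgat5 (0.995), an N-glycan branching enzyme, and Ifi27 (0.994), and Maf to Ssh1 (0.993) and Hsf2 (0.986). Batf was closest to Ankrd13a (0.992) and Ppt2 (0.990), Bhlhe40 to Trp53i11 (0.992) and Srebf2 (0.974), Nfkbiz to Tmem63b (0.994) and Elf4 (0.990) and Ikzf3 to Slc25a45 (0.994) and Dync1h1 (0.993). Ahr had the loosest neighbours, Supt6 (0.950) and Mettl22 (0.945), and 12 genes above 0.9.

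Of 36 partners and paralogues of the factors 32 were tested and 0 passed, with or without the block. Among DNA-binding partners, named after their values were seen, Junb was at 513 to 633 CPM in controls and 574 to 733 CPM with desIgf1, Cbfb at 175 to 187 and 173 to 199, and Arnt, the partner of AHR, at 109 to 127 and 115 to 124. Irf8, a relative of IRF4 that limits Th17 differentiation, was at 33.1, 25.8 and 36.3 CPM in controls and at 47.5, 55.6 and 51.7 CPM with desIgf1. All 3 treated libraries of Irf8 lay above the controls (log2 0.70, edgeR adjusted p = 0.316, and 0.144 with the block), and DESeq2 called it (adjusted p = 0.00640). Nfkbie, an inhibitor of NF-κB, was at 70.8, 56.8 and 67.2 CPM in controls and at 97.9, 80.0 and 76.1 CPM with desIgf1 (log2 0.38, edgeR adjusted p = 0.544). On the lower side Mafk was at 28.3 to 33.3 CPM in controls and 24.9 to 28.4 with desIgf1, and Ahrr, a repressor of AHR, at 4.75 to 16.2 and 3.43 to 7.88 CPM (log2 0.08 in place of -0.57 when control 1 was left out). For Nfkbie the blocked edgeR fit gave an adjusted p of 0.202. The list's median log2 fold change was 0.09.

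Of 32 other regulators linked to Th17 cells all 32 were tested and 0 passed, with or without the block. Id2, an inhibitor of E proteins, was at 246, 228 and 248 CPM in controls and at 374, 310 and 304 CPM with desIgf1, with no overlap (log2 0.46, edgeR adjusted p = 0.394). Id3, its relative, was at 48.9, 35.2 and 25.4 CPM in controls and at 29.0, 19.7 and 19.7 CPM with desIgf1, so the 2 inhibitors had fold changes of opposite sign (log2 -0.68 for Id3, edgeR adjusted p = 0.572). Lef1, a factor of naive T cells, was at 289, 240 and 269 CPM in controls and at 198, 211 and 189 CPM with desIgf1, all below the controls (log2 -0.41, edgeR adjusted p = 0.396). Sox5 was near the floor at 0.548 to 1.17 CPM in controls and 1.75 to 2.80 CPM with desIgf1 (log2 1.37, edgeR adjusted p = 0.430, DESeq2 adjusted p = 0.0395). It had 25, 41 and 41 counts in controls and 70, 118 and 115 with desIgf1. The blocked edgeR fit gave an adjusted p of 0.149 for Id2, 0.137 for Id3, 0.185 for Lef1 and 0.124 for Sox5. The list's median log2 fold change was 0.08.

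Of 28 effector genes that these factors act on, 25 were tested and 0 passed, with or without the block, and Il22, Il9 and Il24 fell under its low-count filter. Il22 had 1, 1 and 11 counts in controls and 8, 7 and 224 with desIgf1, so number 3 held most of them. It entered 2 of the blocked fits and passed there, without number 1 (log2 3.66, edgeR adjusted p = 0.0275) and without number 2 (log2 3.75, edgeR adjusted p = 0.000409), but not in the fit without the filter (edgeR adjusted p = 0.772) or in the 4 fits with 1 library left out that it entered (edgeR adjusted p 0.646 or higher). Il24 had 1, 3 and 0 counts in controls and 8, 35 and 20 with desIgf1, and DESeq2 called it (log2 3.91, adjusted p = 0.0432). At so few control counts these fitted values depend on the model. Il17a was the gene of the sort gate and is no separate finding. It was at 87.7, 109 and 66.0 CPM in controls and at 125, 159 and 138 CPM with desIgf1 (log2 0.68, edgeR adjusted p = 0.441). Il17f was at 845, 598 and 568 CPM in controls and at 942, 989 and 1135 CPM with desIgf1, again with no overlap (log2 0.61, edgeR adjusted p = 0.452). Il10 was near the floor at 1.36 to 2.41 CPM in controls and 0.522 to 1.05 with desIgf1 (log2 -1.33, edgeR adjusted p = 0.489), and Cd200 was at 126 to 248 and 111 to 140 CPM. Csf2, the gene of GM-CSF, was also near the floor, at 0.197 to 0.352 CPM in controls and 0.726 to 1.16 with desIgf1 (log2 1.84, edgeR adjusted p = 0.316, DESeq2 adjusted p = 0.0305). It had 9, 15 and 10 counts in controls and 29, 49 and 54 with desIgf1, and was named after its values were seen. The blocked edgeR fit gave an adjusted p of 0.124 for Il17a, 0.201 for Il17f, 0.185 for Il10 and 0.109 for Csf2. The list's median log2 fold change was 0.25.

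The response genes of AHR and the clock genes that ROR receptors and BHLHE40 share gave the same counts. Of 11 AHR response genes 9 were tested and 0 passed, with or without the block, with a median of -0.26. Cyp1a1, the classic target of AHR, was near the floor at 2.61, 1.41 and 1.60 CPM in controls and at 0.676, 0.855 and 1.01 CPM with desIgf1 (log2 -1.14, edgeR adjusted p = 0.503). It had 119, 60 and 56 counts in controls and 27, 36 and 49 with desIgf1. Cyp1b1 was at 6.80, 1.08 and 0.773 CPM in controls and at 0.651, 0.309 and 0.703 CPM with desIgf1, with no overlap and control 1 far above the rest (log2 -2.38, edgeR adjusted p = 0.550, and -0.74 when control 1 was left out). Tiparp, another AHR target, lay on the other side, at 13.6 to 29.1 CPM in controls and 17.7 to 54.6 with desIgf1 (log2 0.73, edgeR adjusted p = 0.656), and Fam110a was at 13.6 to 15.1 and 13.9 to 16.9 CPM. The blocked edgeR fit gave an adjusted p of 0.267 for Cyp1a1, 0.296 for Cyp1b1 and 0.174 for Tiparp. Of 16 clock genes 15 were tested and 0 passed, with or without the block, with a median of 0.02. For Arntl and Per2, described next, the blocked adjusted p of edgeR was 0.360 and 0.185. Arntl, a gene that ROR receptors activate, was at 83.0, 82.9 and 98.2 CPM in controls and at 101, 104 and 103 CPM with desIgf1 (log2 0.22, edgeR adjusted p = 0.619). Per2, a clock repressor, was at 5.00 to 5.56 CPM in controls and 2.40 to 3.58 with desIgf1 (log2 -0.79, edgeR adjusted p = 0.487, DESeq2 adjusted p = 0.0464), while Per1 was at 74.1 to 82.0 and 71.5 to 107 CPM and Per3 at 4.89 to 7.45 and 3.56 to 6.13 CPM.

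**Figure D5:**
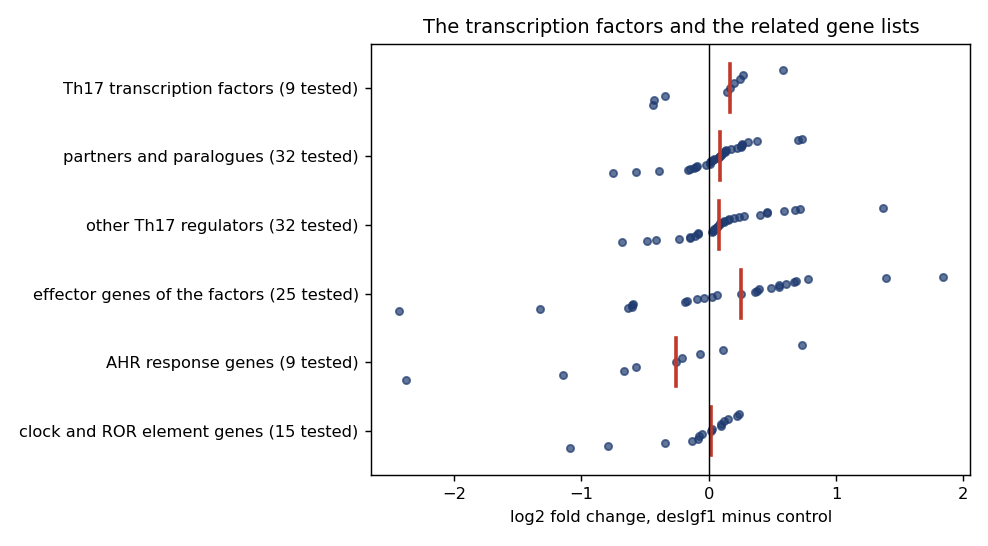
Log2 fold change, desIgf1 minus control (x axis), of each tested gene (points) in the 9 transcription factors and the 5 related lists, with the median as a red bar. The medians run from -0.26 for AHR response genes to 0.25 for effector genes, and 0 of the points passed the edgeR test over all genes.

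The receptor of desIgf1 itself, Igf1r, was at 165, 137 and 122 CPM in controls and at 108, 102 and 75.6 CPM with desIgf1, all below the controls (log2 -0.57, edgeR adjusted p = 0.483, and 0.0838 with the block).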

How the data were processed

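Poly(A) RNA of sorted cells was sequenced with a stranded kit, per the labels' protocols. The authors deposited raw counts per Ensembl gene, 1 file per library. The submitters' processing notes list HTSeq 0.7.2, STAR 2.5.3, Trim Galore 0.4.5, SAMtools 0.1.18, R 3.4.3, DESeq2 1.18.1 and the build GRCm38 (mm10). For their roles, the annotation release and the strand setting, the sources used here give nothing. Rora, Ahr, Maf, Runx1 and Bhlhe40 share 82 to 440 exon bases with a gene on the opposite strand, at most 5.34% of their exons. The 5 summary lines per file stayed out of library sizes. Reads in no gene made up 13.5 to 15.7% of unique reads, ambiguous reads 0.712 to 0.761%, and non-unique alignments 46.4 to 48.7% of all entries. Symbols and lengths came from GENCODE M21, matched to 37693 of 39179 identifiers.

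In R 4.3.3, edgeR 4.0.16 tested the counts (TMM factors, group as the only term, robust quasi-likelihood, low counts removed by filterByExpr at 10), with Benjamini-Hochberg values over all tested genes, checked on simulated data. Standard errors are the log2 fold change over the square root of F, and intervals use the fit's degrees of freedom. DESeq2 1.42.0, limma 3.58.1 (voom), other scalings and filters, the replicate number as a block and each library left out were the alternatives. Log2 CPM used a prior count of 2. Same-numbered libraries deviated together (r = 0.59, 0.32 and 0.55 over genes for numbers 1, 2 and 3). On this evidence of the data alone the blocked fit treats the numbers as pairs, and the fit by group alone does not. Adjusted p-values of edgeR given without a setting are from the fit by group alone. Whether a library stands for its own culture or animal is not stated, and p-values cover only the spread among these 6, which may be technical. The 9 genes, the lists and the tests were chosen with earlier results of these data known. Named beside the 9 were Il17a, Ifng, Foxp3, Igf1r, the 2 genes per list and direction with the smallest p at 1 CPM or more, any gene past the threshold, and the 2 closest genes per member. Ifng had too few counts to test.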

Additional observations from a re-analysis of the deposited data

How the results depend on the processing

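None of the 9 genes passed the edgeR test with each library left out in turn, and their median log2 fold change then ran from 0.029 to 0.26. Batf ran from -0.043 to 0.33, Runx1 from 0.029 to 0.44, Nfkbiz from 0.031 to 0.25, Irf4 from -0.58 to -0.17, Ahr from -0.66 to -0.25, Ikzf3 from -0.67 to -0.15, Rora from 0.37 to 0.66, Maf from 0.16 to 0.28, Bhlhe40 from 0.16 to 0.39, Ahrr from -0.89 to 0.076, Foxp3 from -1.78 to 0.89, Ankrd13a from -0.039 to 0.14 and Ppt2 from -0.033 to 0.11. Medians ran from 0.017 to 0.15 for partners and paralogues, from 0.085 to 0.25 for effector genes and from -0.47 to -0.050 for AHR response genes. The replicate block gave 44 genes past the threshold over all genes, DESeq2 208 and no low-count filter 16, against 0, while the block changed no call among the 9 or the lists. DESeq2 called 1 gene each among the tested partners, other regulators, effector genes and clock genes, and also Il24, which is outside the tested set. In the blocked fits without number 1, 2 or 3, with 1 residual degree of freedom, 72, 620 and 1069 genes passed. Among the 9 that was 0, 3 and 2, with log2 fold changes of 0.39 and 0.72 for Rora, -0.68 for Ahr, 0.34 for Bhlhe40 and -0.59 for Ikzf3. Among partners it was 0, 1 and 2, among other regulators 0, 8 and 6, among the 25 tested effector genes 1, 7 and 12 (Il22, outside that set, also passed without numbers 1 and 2), and among AHR response genes 0, 0 and 2. The effector median was then 0.052 without number 3, and the AHR response median -0.36 and -0.42 without numbers 2 and 3. Per kb of the longest transcript, control levels were 29.9 for Rora, 128 for Batf, 64.1 for Maf, 22.6 for Runx1, 439 for Bhlhe40, 13.4 for Nfkbiz and 39.8 for Ikzf3. The cause of these differences was not tested.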

Other observations

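Several genes of the lists separated the libraries by replicate number more than by group, and they were named after their values were seen. Il21, a cytokine that c-MAF and IRF4 support, had 652, 715 and 109 CPM in controls numbered 1, 2 and 3, against 710, 830 and 221 CPM in the desIgf1 libraries. Fosl2, an AP-1 factor of Th17 cells, was at 179, 156 and 50.8 CPM in controls and at 206, 205 and 53.8 CPM with desIgf1. Ccr6, the chemokine receptor of Th17 cells, had the opposite pattern, at 12.1, 16.1 and 148 CPM in controls and at 29.8, 46.2 and 153 CPM with desIgf1. Tmem176b, a membrane protein gene linked to Th17 cells, was also highest in number 3, at 309 CPM in the control and 204 CPM in the treated library, against 64.6 to 129 CPM in the other 4. Within numbers 1, 2 and 3 Tmem176b was lower with desIgf1 (log2 -0.70, -0.49 and -0.60, blocked edgeR adjusted p = 0.0699). Foxp3 and the summed dendritic cell markers, mostly Ccl22, were highest in number 3 as well, and their part in these values was not tested.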
